A study of Mus musculus with 2 samples.

Results

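Lung T cells were examined in whole-lung single-cell RNA sequencing of female BALB/c mice. They were taken as every cell that the authors had annotated as a T cell, which gave 2850 of the 18397 cells (15.5%), 1411 on control diet (CD) and 1439 on high-fat diet (HFD). Mice entered the diets at 4 weeks of age, stayed on them for 16 weeks and were 20 weeks old at collection. CD drew 13% of its energy from fat, 27% from protein and 60% from carbohydrate, and HFD drew 60% from fat, 20% from protein and 20% from carbohydrate. The fat was lard. In both groups the lungs were perfused and digested and red blood cells were lysed, and no sorting step is described. Each diet was 1 library, and the sources used here do not say how many mice it holds, so diet and library cannot be told apart. No test could therefore be run, and every interval below is a 95% interval for counting error only, which leaves out the spread between animals.

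T cells are the lymphocytes that recognise peptides on other cells through the T cell receptor. The receptor chains bind the peptide and the CD3 chains carry the signal into the cell. Cells with the co-receptor CD4 mostly help or restrain other immune cells, whereas cells with CD8 mostly kill infected or malignant ones. The lung holds both recirculating T cells, which pass through its vessels, and resident ones that stay in the tissue. Unique molecular identifiers (UMIs) count the RNA molecules captured per cell, and the number of detected genes tells how many genes gave at least 1 of them.

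The annotation covered 6 of the 51 fine clusters, numbered 4, 6, 17, 19, 29 and 43, and these clusters held no cell of another annotation. Together the T cells carried 5266048 UMIs in CD and 6034889 in HFD. The whole libraries had 8793 cells in CD and 9604 in HFD, with median UMIs per cell of 3356 and 3591. Between both libraries 27 barcodes were shared, and 1 of them was a T cell in each. Depth differed between the libraries as well, and its part in the differences below was not tested except where values at matched depth are given.

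The label could be set only against a flag for Cd3e, Cd3d and Cd3g, which encode the signalling chains CD3 epsilon, delta and gamma. All 3 were flagged as highly variable genes, the set of 1000 among 19278 listed genes (5.19%) from which the map and the clusters were built. They lie side by side on chromosome 9 of GRCm38. Cd3g (ENSMUSG00000002033) runs from 44969572 to 44980431 on the minus strand, Cd3d (ENSMUSG00000032094) from 44981786 to 44987339 on the plus strand and Cd3e (ENSMUSG00000032093) from 44998740 to 45009627 on the minus strand. Cd3g and Cd3d are transcribed away from each other, with 1354 bases between their annotated starts. The level of these genes in each cell was not analysed here, so the name T cells rests on the authors' annotation and the fine clusters are called by number, with no subset name.

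On the UMAP map, a flat layout in which cells with like expression lie close together, the T cells formed a territory of their own. The smallest distance from any T cell to a cell of another annotation was 0.267 map units, and the median distance was 0.435. Between neighbouring T cells the median distance was 0.00119 and the largest was 0.0249. Among the 15 nearest cells of each T cell, none had another annotation in any of the 6 clusters. The nearest other cell belonged to the unannotated cluster 42 for 2551 T cells and to macrophage cluster 31 for 299, and it was never a B or NK cell. Since the clusters were drawn on this map, position describes them and does not test them.

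**Figure D1:**
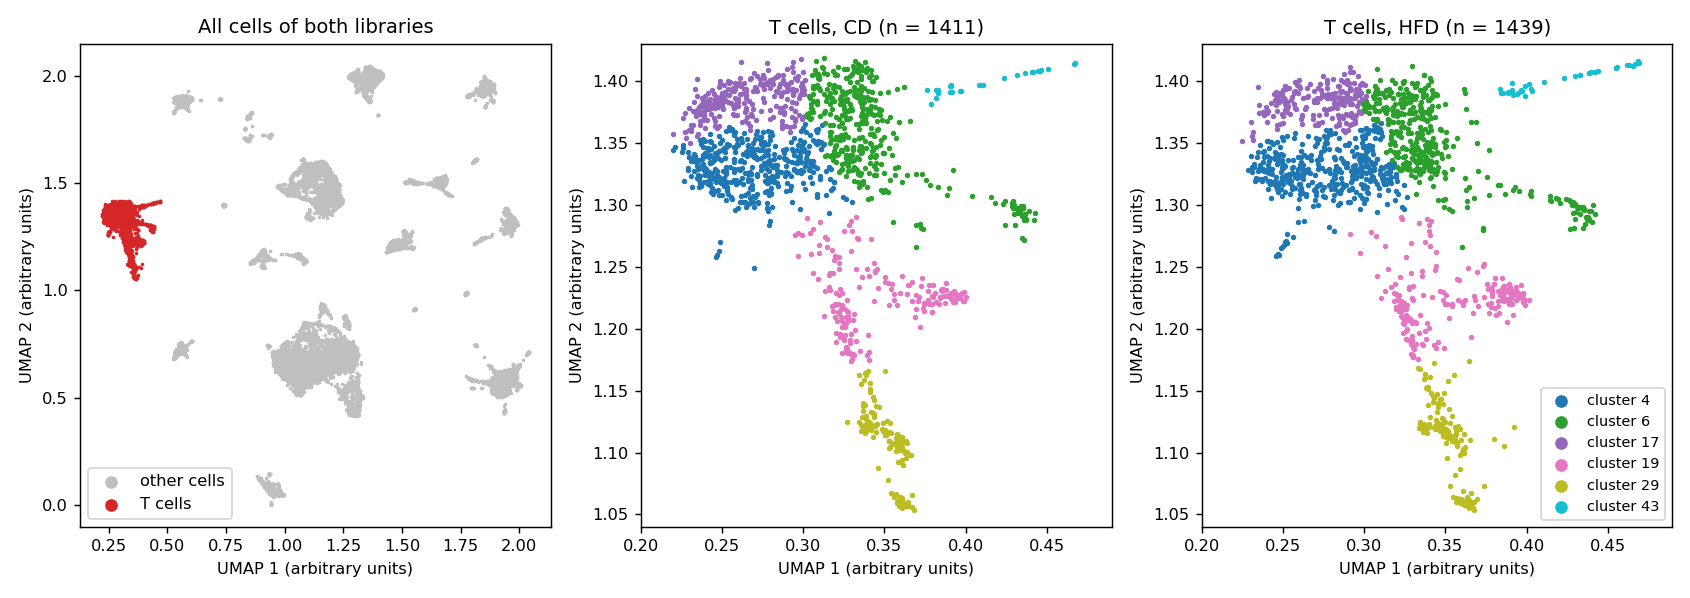
UMAP map in arbitrary units, with 1 point per cell. The left panel shows all 18397 cells with T cells in red, and the other panels enlarge the 1411 CD and the 1439 HFD T cells, coloured by fine cluster. Most cells of clusters 4, 6 and 17 abut, while 19, 29 and 43 form the stalk and a side branch in both libraries.

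Within that territory the clusters had distinct places. Most cells of clusters 4, 6 and 17 adjoined each other, and these 3 clusters are called the body here. They held 2067 T cells (72.5%), some of which lay in smaller detached pieces. The median positions of 4 and 17 were 0.0554 apart, and cells of cluster 4 lay at a median of 0.0283 from its centre. Of the neighbours of cluster 17 cells, 97.1% were in cluster 17, 1.80% in cluster 4 and 1.09% in cluster 6. Clusters 19 and 29 followed as a stalk below the body, with median positions 0.113 apart, and 0.604% of the neighbours of cluster 29 lay in cluster 19 and none in the other T cell clusters. Cluster 43 was a narrow branch beyond cluster 6, and 99.6% of its neighbours were its own cells.

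The first comparison asked whether T cells took another share of the lung under HFD. In the CD library 16.05% of the cells were T cells (15.3 to 16.8), compared to 14.98% in the HFD library (14.3 to 15.7). The share under HFD was 0.934 times that under CD, with an interval of 0.867 to 1.01 that included 1. When only the 10 immune types were counted, T cells made up 37.7% under CD (36.1 to 39.3) against 38.3% under HFD (36.8 to 39.9). The ratio then lay on the other side of 1, at 1.02 (0.944 to 1.09). Compared with the other lymphocytes, each B cell was matched by 1.54 T cells under CD and by 1.71 under HFD, which is 1.12 times as many (0.989 to 1.26). Each NK cell was matched by 4.34 and 4.31 T cells, respectively (0.992 times, 0.835 to 1.18). With these 4 denominators the interval included 1. When endothelial cells were left out of the library, the ratio of the T cell share was 0.890, and its interval of 0.827 to 0.959 did not include 1. Other types in that denominator differed too. Their library shares under HFD were 1.65 times the CD value for alveolar type I cells, 1.45 for alveolar type II cells, 1.24 for fibroblasts and 0.837 for B cells. Their part in the ratio was not tested. The median NK cell was shallower under CD, at 2097 UMIs, than under HFD, at 2717 (2378 over both libraries). Among cells of 3000 or more UMIs, T cells per NK cell under HFD were 0.546 times the CD value (0.396 to 0.748). At that limit the ratio for T cells per B cell lay on the other side of 1, at 0.934 (0.777 to 1.12). The part of NK and B cell depth in these ratios was not tested.

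The make-up of T cells was then compared by fine cluster. In both libraries the order of the clusters was 4, 6 and then 17 or 19, followed by 29 and 43. Cluster 17 was the one whose share differed most in percentage points: it held 257 of the CD T cells (18.2%, 16.2 to 20.3) and 206 of the HFD T cells (14.3%, 12.5 to 16.2). Its share was 3.90 percentage points lower in HFD and the ratio was 0.786 (0.651 to 0.948), an interval that did not reach 1, although the separate intervals met at 16.2%. The interval was not adjusted for picking the largest difference among 6 clusters. Cluster 43, the smallest, held 28 CD cells (1.98%, 1.32 to 2.86) and 37 HFD cells (2.57%, 1.82 to 3.53). Its ratio of 1.30 had an interval from 0.772 to 2.20, too wide to give a direction.

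The other 4 clusters stayed within 1.2-fold. Cluster 4, the largest, held 412 CD cells (29.2%) and 414 HFD cells (28.8%), and the ratio was 0.985 (0.858 to 1.13). Cluster 6 numbered 375 CD cells (26.6%) against 403 HFD cells (28.0%), or 1.05 times the share (0.913 to 1.22). Cluster 19 numbered 191 CD cells (13.5%) against 218 HFD cells (15.1%), and its ratio of 1.12 had an interval from 0.917 to 1.37. For cluster 29 the numbers were 148 (10.5%) and 161 (11.2%), and the ratio was 1.07 (0.848 to 1.34). All 4 intervals included 1.

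Thus 2 of the 6 T cell clusters (33.3%) passed 1.2-fold in either direction. Over all clusters of cell types with more than 1 cluster, 47.2% did so relative to their own type, and over all 51 clusters 54.9% did so relative to the library. Both backgrounds include the T cell clusters and small clusters with few cells, and nothing is read from 6 clusters against them. Counted together, clusters 4, 6 and 17 made up 74.0% of CD T cells (71.6 to 76.3) against 71.1% of HFD T cells (68.7 to 73.4), and the ratio of 0.961 had an interval (0.881 to 1.05) that included 1. Among clusters 4, 6 and 17 alone, cluster 17 had a ratio of 0.818 (0.678 to 0.986).

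**Figure D2:**
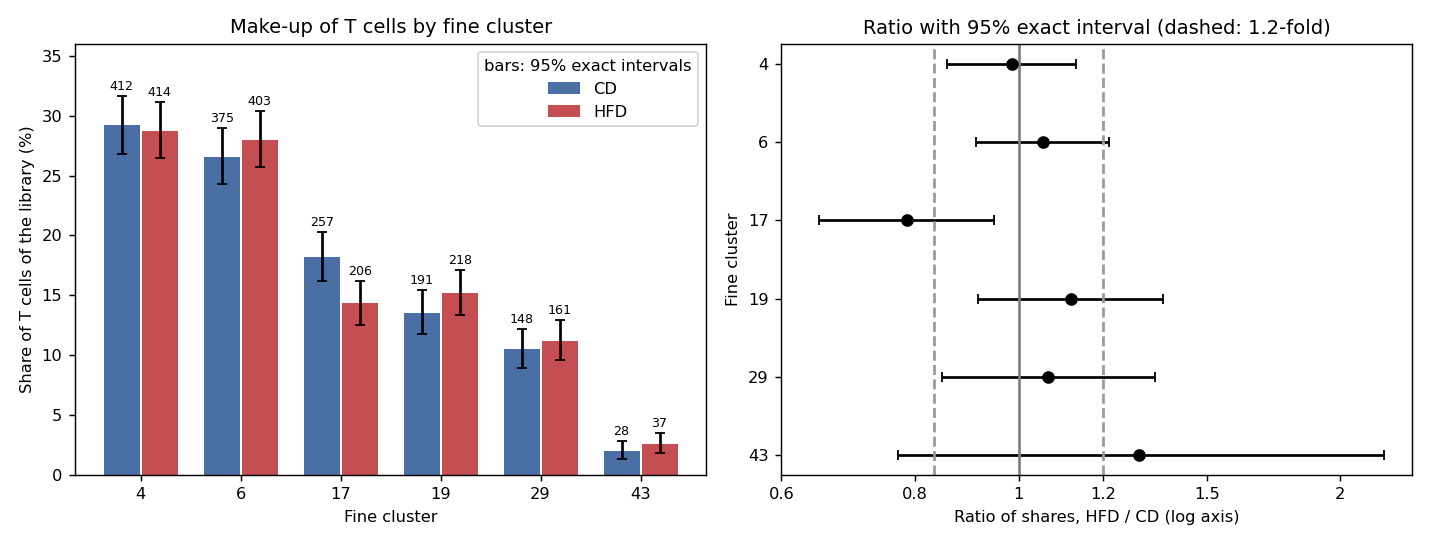
Left, share of each library's T cells (%) in each fine cluster, with 95% exact intervals and the number of cells above each bar. Right, ratio of the shares, HFD over CD, on a log axis with dashed lines at 1.2-fold. Cluster 17 lies at 0.786 with an interval below 1, and the intervals of the other 5 clusters include 1. No interval is adjusted for the number of clusters compared.

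Because depth differed between the diets, the shares were also compared within quartiles of UMIs over all T cells. Cluster 17 had a lower share in HFD in 4 of 4 quartiles, with ratios of 0.904, 0.662, 0.731 and 0.871 from the lowest to the highest. With the quartiles weighted equally its ratio was 0.786, as without weighting. Cluster 43 had 1.07 under the same weighting, below 1.2-fold. For cluster 19 the ratios were 1.37 and 1.59 in the lower quartiles, 1.00 in the next and 0.752 among the deepest cells. For cluster 29 they were 0.876, 1.14 and 0.791, and 1.68 (1.01 to 2.91) in the deepest quartile, with 21 CD and 59 HFD cells. Of the 24 ratios, 3 had intervals without 1, those of clusters 17 and 19 in the second lowest quartile and of cluster 29 in the highest.

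**Figure D3:**
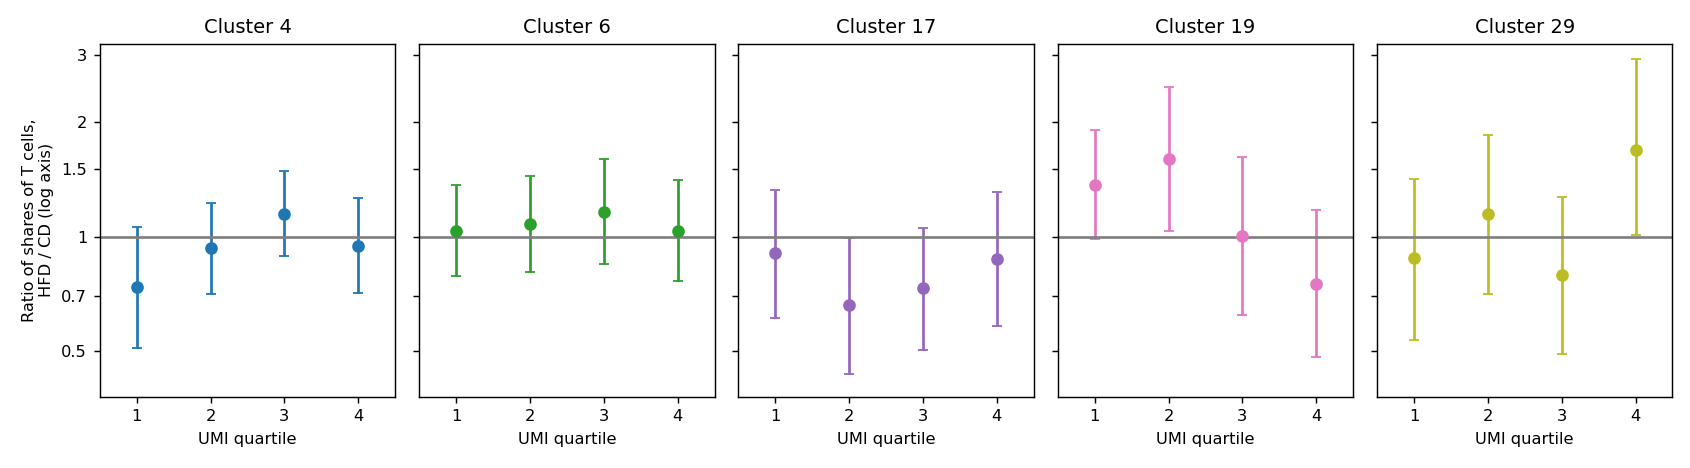
Ratio of the share of T cells, HFD over CD, on a log axis by quartile of UMIs (1 is the lowest) for the 5 larger clusters, with 95% exact intervals. Cluster 17 stays below 1 in every quartile, at 0.662 to 0.904, and cluster 19 goes from 1.37 in the lowest to 0.752 in the highest. Cluster 43 is not drawn because some quartiles hold as few as 2 of its cells per library.

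T cells were captured more deeply in HFD. The median CD T cell had 3518 UMIs (3449 to 3569), whereas the median HFD T cell had 3927 (3844 to 4014), or 1.12 times as many (1.08 to 1.16). Detected genes were higher too, with a median of 1199 under CD (1178 to 1216) against 1314 under HFD (1294 to 1329), or 1.10 times as many. For UMIs and genes alike, CD and HFD had intervals that lay apart. The median mitochondrial percent was 3.17% under CD (3.12 to 3.25) against 3.31% under HFD (3.24 to 3.39), with overlapping intervals. Among the 17 annotated types, 9 had a higher ratio of median UMIs than T cells, and the ratio was 1.13 in B cells and 1.30 in NK cells.

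The higher depth was seen in every T cell cluster. In cluster 4 the median went from 3656 UMIs in CD (3498 to 3737) to 4121.5 in HFD (4011 to 4218), and in cluster 6 from 3403 (3229 to 3508) to 3817 (3662 to 4002). Cluster 17 followed with 3547 (3359 to 3761) and 3934 (3766 to 4161). These 3 clusters of the body had intervals that did not overlap. Cluster 29 had 3527.5 and 3935 UMIs, cluster 43 had 4162.5 and 4855, and cluster 19 had 3321 and 3420, the smallest ratio of the 6 clusters at 1.03. In these 3 clusters the intervals of the libraries overlapped.

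Median UMIs were higher in HFD in 6 of 6 T cell clusters, against 77.1% of the lung's clusters with at least 10 cells in each library. In 3 of the 6 (50%) the intervals were apart, against 20.8%. Median genes were higher in 6 of 6 as well, compared to 83.3% of all clusters, with intervals apart in 4 (66.7%) compared to 25.0%. The mitochondrial percent was higher in HFD in 5 of 6 clusters, close to the 79.2% of all clusters, and in none were the intervals apart (8.33% of all clusters). Large clusters give narrow intervals, so the counts of separated intervals also reflect how many cells a cluster holds.

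**Figure D4:**
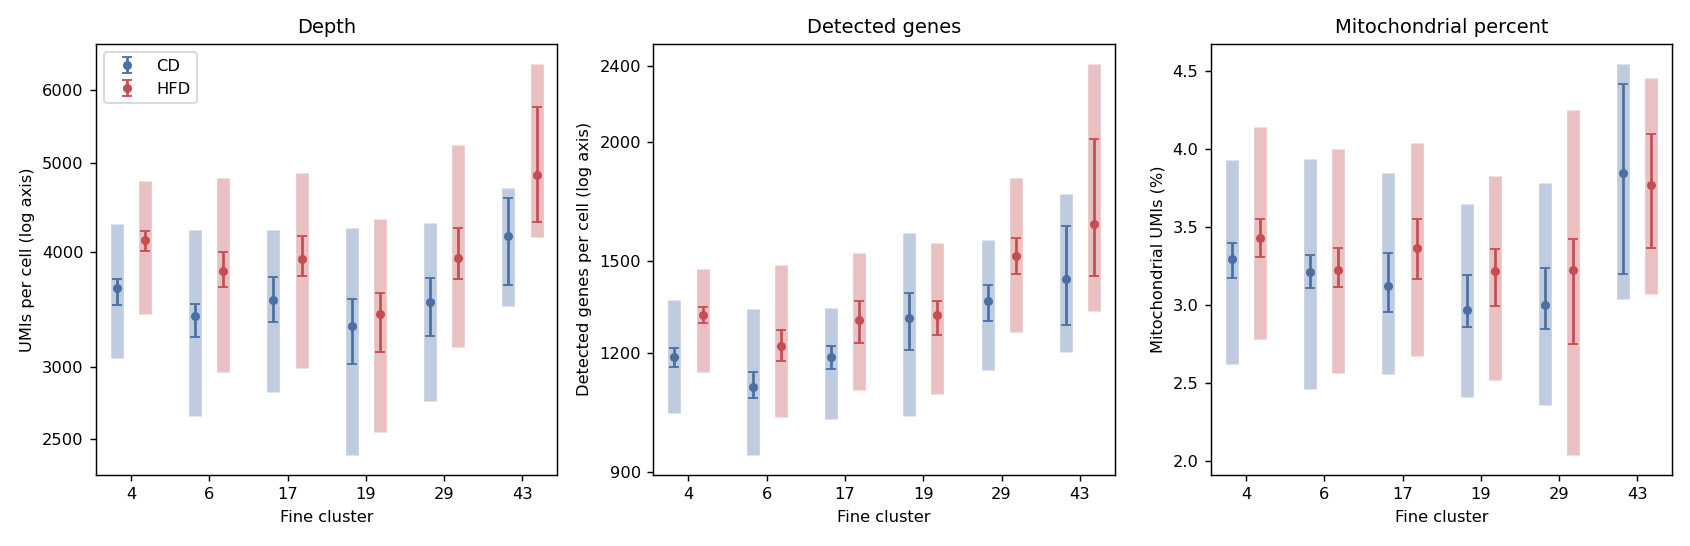
Median UMIs and detected genes per cell (both on log axes) and median mitochondrial percent for each T cell cluster, CD in blue and HFD in red. Points are medians over cells with 95% intervals, and pale bars span the quartiles. HFD medians of UMIs and genes lie above CD in all 6 clusters, with the smallest step in cluster 19, from 3321 to 3420 UMIs.

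Since clusters were cut from the expression of the same cells, differences between them are described and not tested. Over both libraries cluster 43 had the most UMIs, with a median of 4520 (4196 to 4733), apart from cluster 4 in second place with 3865 (3768 to 3957). Clusters 17, 29 and 6 followed at 3748, 3743 and 3552.5 UMIs and did not differ from their neighbours in the order beyond their intervals. Cluster 19 was lowest at 3348 (3176 to 3500), and 14.7% of its cells (11.4 to 18.5) had fewer than 2000 UMIs, compared to 2.78% of cluster 4 (1.77 to 4.15). Above 8000 UMIs, cluster 43 had the highest share, with 8 of its 65 cells (12.3%, 5.47 to 22.8). Cluster 19 held 25 such cells (6.11%, 3.99 to 8.89), including the deepest T cell of each library, at 36965 UMIs in CD and 36464 in HFD. Cluster 17 had only 3 such cells among 463 (0.648%).

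Over all T cells, 28 CD (1.98%, 1.32 to 2.86) and 51 HFD T cells (3.54%, 2.65 to 4.63) had more than 8000 UMIs. Cells under 2000 UMIs made up 7.23% of CD T cells (5.93 to 8.71) and 6.81% of HFD T cells (5.56 to 8.24). Cells above 10% mitochondrial UMIs were rare in both, with 20 CD cells (1.42%, 0.868 to 2.18) and 36 HFD cells (2.50%, 1.76 to 3.45). A further 6.02% of CD and 5.28% of HFD T cells had less than 1% mitochondrial UMIs. In each of these 4 classes the intervals of the libraries overlapped.

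Cluster 43 stood highest in mitochondrial percent too, with a median of 3.84% (3.40 to 4.00), and its interval overlapped that of cluster 4 at 3.36% (3.27 to 3.43). Clusters 17, 6 and 19 had 3.24%, 3.22% and 3.10%. Over both libraries together cluster 29 was lowest at 3.06% (2.86 to 3.26), within the interval of the cluster before it. Within each library cluster 19 was lowest, with 2.97% in CD and 3.22% in HFD, against 3.00% and 3.23% in cluster 29.

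At like depth, cells of the stalk had more detected genes than cells of the body. Over all depths, cluster 43 had a median of 1517 genes (1431 to 1640) and cluster 29 had 1444 (1380 to 1497), followed by cluster 19 with 1314, cluster 4 with 1262 and cluster 17 with 1221. Cluster 6 was lowest with 1166 (1140 to 1201). Since deeper cells show more genes, cells with 3000 to 4000 UMIs were compared. At that depth clusters 29 and 19 had 1371.5 (1340 to 1413) and 1353 (1319 to 1391) genes, whereas clusters 17, 4 and 6 had 1187.5 (1162 to 1208), 1161.5 (1143 to 1181) and 1133.5 (1106 to 1156). The stalk clusters thus lay above the body clusters with intervals apart. Cluster 43 had 9 cells in this range and a median of 1328 (1193 to 1747), which overlapped both groups.

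At matched depth the medians of all T cells lay closer between the diets. T cells with 3000 to 4000 UMIs had a median of 1186 genes under CD (1167 to 1201, 511 cells) against 1218 under HFD (1204 to 1236, 417 cells), and these intervals lay apart. Within that range the median UMIs were 3500 and 3522. By cluster the medians were 1146.5 and 1198 in cluster 4, 1126.5 and 1146.5 in cluster 6, 1178 and 1206 in cluster 17 and 1366 and 1385 in cluster 29. Depth was matched less closely in cluster 4, with median UMIs of 3469 and 3564.5 in that range, and in cluster 17, with 3532 and 3673. In cluster 19 the order was reversed and the medians lay further apart than the 1305 and 1315 genes over all depths, with 1391 genes under CD (1348 to 1408) against 1323 under HFD (1292 to 1359). Library intervals overlapped in each of these 5 clusters.

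Compared with B and NK cells, T cells had more UMIs, but fewer genes among cells with 3000 to 4000 UMIs. The median over both libraries was 3715 UMIs in T cells, 2621 in B cells and 2378 in NK cells. With 3000 to 4000 UMIs, T cells had 1200 genes (1186 to 1209), B cells 1283 (1268 to 1301), NK cells 1427.5 (1403 to 1454) and all cells other than T cells 1609 (1599 to 1619). This range lies above the medians of B and NK cells. It held 337 of 1759 B cells and 102 of 659 NK cells, against 928 of 2850 T cells, and other depths were not compared. Of the 14 types with at least 10 cells in this range, only basophils had a lower median than T cells.

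**Figure D5:**
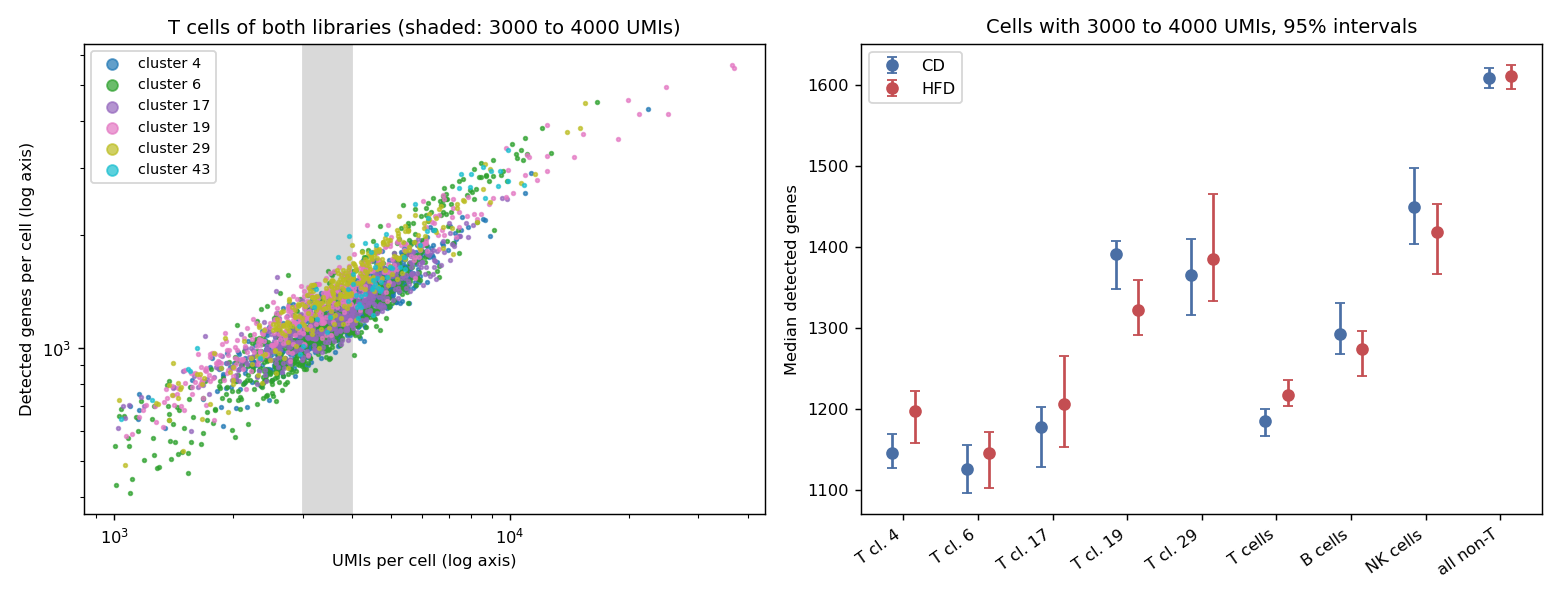
Left, detected genes against UMIs for each T cell on log axes, coloured by cluster, with 3000 to 4000 UMIs shaded. Right, median genes of the cells in the shaded range by library with 95% intervals. Clusters 19 and 29 lie at 1353 and 1371.5 genes over both libraries, above the 1133.5 to 1187.5 of clusters 4, 6 and 17.

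Some clusters were made of more than 1 piece on the map. When T cells closer than 0.01 map units were joined, 2676 of them (93.9%) formed the largest of 15 pieces, and 4 smaller pieces held 16 to 75 cells each. The remaining pieces held at most 6 cells each. The largest of the smaller pieces was an outlying part of cluster 6 with 34 CD and 41 HFD cells. Its median of 6647 UMIs (5763 to 6894) and 2349 genes (2154 to 2502) compared with 3451 UMIs and 1127 genes in the remaining 703 cells of cluster 6. Among T cells of 6000 to 8000 UMIs its 23 cells had 2454 genes (2349 to 2557) and the 120 others 1972 (1897 to 2054). Doublets were not called, and their part in these deep cells was not tested. It made up 2.41% of CD and 2.85% of HFD T cells, and the interval of the ratio of 1.18 ran from 0.732 to 1.92.

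Cluster 43 split into a base of 35 cells with a median of 4196 UMIs and 1379 genes and a tip of 30 cells with 5512.5 UMIs and 1999.5 genes. The base held 16 CD and 19 HFD cells and the tip 12 and 18. A spur of cluster 4 held 4 CD and 12 HFD cells, and its ratio of 2.94 had an interval from 0.892 to 12.5.

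Cluster 19 consisted of a left part on the stalk and a right arm, divided here at 0.36 on the first map axis, a boundary chosen after the map had been seen. The right arm held 64 CD cells and 98 HFD cells, which is 33.5% of cluster 19 under CD (26.9 to 40.7) against 45.0% under HFD (38.2 to 51.8). Of all T cells the arm held 4.54% under CD (3.51 to 5.76) against 6.81% under HFD (5.56 to 8.24), which is 1.5 times the share (1.08 to 2.09). With the boundary at 0.34 or 0.38 the ratio was 1.42 (1.07 to 1.90) or 1.83 (1.22 to 2.79). These boundaries take overlapping cells of the same arm, so they are no separate check of the first. The left part held 127 and 120 cells, and its ratio was 0.926 (0.716 to 1.2). Cells of the right arm were shallow, with a median of 2853.5 UMIs and 1191 genes, compared to 3566 UMIs and 1383 genes on the left. Within the arm the median was 2762 UMIs in CD and 3005.5 in HFD. The part of depth in the larger arm under HFD was not tested.

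Cells of both libraries lay among each other on the map. Of the 15 nearest T cells, 52.2% came from the same library, where the library sizes alone would give 50%. By library the share was 51.3% in CD and 53.1% in HFD, which is 1.77 and 2.59 percentage points above the share of each library. By cluster, neighbours and library shares were taken within that cluster only, and the largest excess was 4.46 points, for HFD cells of cluster 17. In cluster 43 it was -0.28 points for CD and 0.327 for HFD. With neighbours taken within their own type, B cells had excesses of 2.09 and 3.75 points and NK cells of 0.216 and 1.25. The median positions of CD and HFD cells in a cluster were 0.121 to 0.680 of that cluster's own spread apart, least in cluster 43 and most in cluster 17.

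Genes with known roles in T cells were then read for the highly variable flag, which marks variation over all lung cells of both diets and has no direction between them. Of 72 genes in 8 lists, all were in the gene table and 40 (55.6%) carried the flag, compared to 5.19% of all genes. The lists were drawn from genes known to separate immune cells, so this share is no result about T cells.

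In the T cell receptor complex 9 of 11 genes were flagged. They included the constant regions of the receptor chains, Trac (alpha), Trbc1 and Trbc2 (beta), Trdc (delta) and Tcrg-C1 (gamma). Cd247, which encodes the zeta signalling chain, and Tcrg-C2 were not flagged. None of the 50 variable segments of the receptor chains in the table was flagged, a count made after the flags had been seen. Of the co-receptors, Cd8a and Cd8b1, which encode both chains of CD8, were flagged and Cd4 was not. Cd8b1 lies on chromosome 6 from 71322788 to 71337494 and Cd8a from 71373427 to 71379173, both on the plus strand.

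Of 12 genes for signalling and identity, Cd28, a receptor for co-stimulation, was the only flagged one. Among genes of naive and central memory cells, Ccr7, which guides cells to lymph nodes, the transcription factor Lef1 and the interleukin receptor Il7r were flagged. Tcf7, S1pr1, Klf2 and Satb1 were not.

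Among cytotoxic and effector genes 9 of 11 were flagged, including the granzymes Gzma and Gzmb, the pore-forming Prf1, the granule gene Nkg7, the chemokine Ccl5, the cytokine Ifng, the transcription factor Eomes and the inhibitory receptor Klrg1, while Gzmk and Tbx21 were not. NK cells use many of these genes too, and Gzma is also on the list of 4 NK markers, all of which were flagged. Among regulatory T cell genes 5 of 7 were flagged, the receptors Il2ra, Ctla4, Tnfrsf4 and Icos and the factor Ikzf2. Foxp3, the defining factor of these cells, and Tnfrsf18 were not.

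Of 12 genes of type 2 and type 17 cells 6 were flagged, namely the factor Gata3, the receptors Il1rl1 and Cxcr6, the cytokines Il17a and Il4 and the growth factor Areg. Of 8 genes of residence and activation 4 were flagged, the early activation marker Cd69, the adhesion genes Itgal and Cd44 and the inhibitory receptor Pdcd1, while Itgae, Lag3, Tigit and Havcr2 were not. Of the B cell markers, Cd79a, Cd79b and Ms4a1 were flagged. Which of these genes marks which of the 6 clusters was not analysed here.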

How the data were processed

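Reads had been mapped by the authors with Cell Ranger to GRCm38.p6 (mm10). They merged both libraries in Seurat (version 4.1.0 per the submitters' notes), filtered cells by UMIs, genes and mitochondrial percent, and clustered on the UMAP map built from 1000 highly variable genes. The stated minimum was 500 UMIs, but the lowest deposited count per cell is 1000. No doublet removal is stated. Labels name a 3' kit and the methods a 5' kit. The deposited table gives counts of UMIs and genes per cell, not normalised, the percent of mitochondrial UMIs, the fine cluster and annotation as labels from the authors, and UMAP coordinates, a score of arbitrary scale. Other values of the deposited gene table are yes-or-no flags.

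From these, shares were computed with exact Clopper-Pearson intervals, ratios of shares with exact conditional binomial intervals, T cells per B or NK cell with conditional odds ratio intervals, and medians with order-statistic intervals. A cluster counted as shifted past 1.2-fold. The interval of a ratio of medians joins the outer bounds. Values at matched depth used 3000 to 4000 UMIs or quartiles, since cells could not be thinned without counts of genes. Doublets were not called. Leaving out the 1% of cells with the most UMIs removed only 4 T cells and does not bear on them. The intervals of shares, of ratios of shares and of medians were tested on simulated data. Those of odds ratios and of ratios of medians were not. Gene positions are from GENCODE M21 (GRCm38). Every cluster was to be named, with fullest values for those past the fold, the largest and the highest and lowest in depth. Of each gene list, up to 8 flagged genes were to be named in list order, and unflagged genes where 5 or fewer. Some listed genes are not reported here. The members, lists and comparisons were chosen with earlier results of these data known. Alternatives were other limits on cells, denominators, depth weighting and numbers of neighbours. Python 3.11.15, pandas 2.3.3, numpy 2.4.6, scipy 1.17.1, scikit-learn 1.9.0 and matplotlib 3.10.9 were used.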

Additional observations from a re-analysis of the deposited data

How the results depend on the processing

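Of 98 values under alternatives, 88 lay inside the main value's 95% interval (counts, inside 1.5 times) and 10 lay outside. The ratios of the T cell share, of T cells per B cell and of clusters 4, 6 and 29 crossed 1 under some alternatives, each with a main interval that included 1: cluster 4 ranged from 0.920 to 1.03, cluster 6 from 0.984 to 1.10 and cluster 29 from 0.996 to 1.13. The count of T cell clusters past 1.2-fold was 2, and it was 1 with at least 2000 UMIs, with at least 3000 UMIs, with equal weights for UMI quartiles, and with clusters 4, 6 and 17 counted as 1. It was 0 with a fold of 1.5 and 0 when the intervals of both shares had to be apart. The merged cluster and the ratios within clusters 4, 6 and 17 were added once the map was known, that is, after seeing the data. Cluster 17 had ratios from 0.734 to 0.818 over 8 alternatives, and cluster 43 from 1.07 to 1.32 over 7. The T cell share had a ratio of 1.02 among immune cells and of 0.890 (0.827 to 0.959) without endothelial cells, where the interval no longer included 1. With at least 2000 UMIs, T cells per NK cell had a ratio of 0.696, and with at least 3000 UMIs 0.546, while T cells per B cell had 0.934. The cause was not tested, and these minimums lie near the median UMIs of NK and B cells. For NK cells that median was lower under CD, at 2097, than under HFD, at 2717. Ratios of median UMIs ranged from 1.09 to 1.12. No paired analysis was possible because CD and HFD are a single library each. With these cell numbers the 65 cells of cluster 43 left a ratio interval from 0.772 to 2.20.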
